A study of Mus musculus with 2 samples.

Results

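The genes described here build, bind or break down hyaluronan, the long unsulfated sugar chain of the extracellular matrix, or encode the proteoglycans and link proteins that assemble on it. They were chosen by name: 10 symbols (Acan, Vcan, Hapln1, Hapln3, Hapln4, Has1, Has2, Cd44, Hyal1 and Hyal2) were looked up in a table of 35798 rows, and rows naming several genes were left out. Of these, 9 had a row of their own. Hyal1 was found only in a row that it shares with Hyal3 and Nat6. Expression was measured by RNA sequencing in bone marrow cells of adult C57BL/6 mice, sorted for nestin-driven GFP and against CD45, CD31 and Ter119, which mark leukocytes, endothelium and red cells. Mice of the control group were labelled Nes-gfp, a reporter in which nestin regulatory sequence drives GFP in perivascular stromal cells. The other group was labelled Nes-gfp;Mx1-cre;JAK2-V617F. In it the interferon-inducible Mx1-cre switches on the activated kinase of myeloproliferative neoplasms. All mice were littermates that had received pIpC, a double-stranded RNA analogue that induces interferon, 6 weeks earlier. The labels give no Cre allele for the controls, so Cre and the mutation cannot be told apart. Each group was 1 library pooled from 3 animals, called the control pool and the mutant pool from here on, so no value has a replicate error and no test between genotypes can be made.

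Hyaluronan is made at the plasma membrane by the synthases Has1, Has2 and Has3 from UDP-sugars and is extruded as it grows. Lecticans are large chondroitin sulfate proteoglycans whose N-terminal domain grips hyaluronan. They are aggrecan (Acan), versican (Vcan), brevican (Bcan) and neurocan (Ncan). Link proteins, encoded by the Hapln genes, clamp this contact, and aggrecan, link protein and hyaluronan together form the swelling aggregates of cartilage. Versican is the lectican of loose connective tissue and of inflamed matrix, and is also made by monocytes. CD44 is the main cell-surface receptor of hyaluronan and is abundant on marrow stroma and on most blood cells. HYAL2, anchored at the cell surface, and HYAL1, in lysosomes, cut the chain.

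Levels are in FPKM, fragment numbers scaled by transcript length and by sequencing depth, so that they can be compared between genes of different length. The steps between low values put the depth at about 5400000 fragments in the control library and 6250000 in the mutant pool. For 1 kb of effective transcript length, a single fragment was worth 0.185 FPKM in control cells and 0.160 FPKM in the mutant pool. The difference between libraries is given as the log2 ratio of JAK2 V617F over control after adding 1 FPKM to each value, which understates the change of low genes. A gene was called higher or lower at a 2-fold difference on this scale, and genes that stayed under 1 FPKM in both pools were not considered. Stromal identity transcripts were present in both pools, led by Cxcl12 (891 and 694 FPKM, control first) and Lepr (84.8 and 65.4 FPKM). Transcripts of the cells that the sort was meant to remove were also present. Pecam1, which encodes CD31, measured 17.1 and 19.0 FPKM, and Ptprc, which encodes CD45, measured 5.38 and 8.79 FPKM.

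Link protein and lectican genes lie side by side in the mouse genome, and the pairs Hapln1 with Vcan and Hapln3 with Acan include 3 of the 4 genes called below, so the promoters of both pairs are printed. RefSeq promoters, which run from 250 bases before to 50 bases after the start site on build GRCm38.p6, were found for 8 of the 10 genes. Capitals mark matches, on either strand, to 5 short motifs. They were a TATA-like element, spelled TATAAA, the core site of SOX factors, spelled ACAAAG, that of RUNX factors, spelled TGTGGT, the GC box, spelled GGGCGG, and the cyclic AMP response element, spelled TGACGTCA. The windows are chr13:89540386-89540685 on the plus strand for Hapln1, chr13:89742463-89742762 on the minus strand for Vcan, chr7:79130969-79131268 on the minus strand for Hapln3 and chr7:79052976-79053275 on the plus strand for Acan, each written 5′ to 3′.
Hapln1: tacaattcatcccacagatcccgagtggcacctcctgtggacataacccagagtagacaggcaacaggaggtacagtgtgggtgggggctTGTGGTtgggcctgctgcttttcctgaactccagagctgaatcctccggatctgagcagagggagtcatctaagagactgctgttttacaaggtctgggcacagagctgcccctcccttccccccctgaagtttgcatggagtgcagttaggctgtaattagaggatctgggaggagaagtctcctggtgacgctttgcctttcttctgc
Vcan: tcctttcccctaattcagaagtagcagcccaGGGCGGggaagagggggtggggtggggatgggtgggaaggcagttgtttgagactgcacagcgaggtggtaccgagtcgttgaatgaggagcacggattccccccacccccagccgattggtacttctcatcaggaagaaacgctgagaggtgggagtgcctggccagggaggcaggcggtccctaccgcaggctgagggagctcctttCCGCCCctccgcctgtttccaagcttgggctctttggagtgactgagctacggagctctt
Hapln3: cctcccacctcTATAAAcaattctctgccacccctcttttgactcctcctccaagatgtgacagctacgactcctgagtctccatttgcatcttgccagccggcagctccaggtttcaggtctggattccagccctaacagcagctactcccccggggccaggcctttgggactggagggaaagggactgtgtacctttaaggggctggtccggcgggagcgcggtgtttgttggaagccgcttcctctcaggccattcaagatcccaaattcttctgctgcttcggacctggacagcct
Acan: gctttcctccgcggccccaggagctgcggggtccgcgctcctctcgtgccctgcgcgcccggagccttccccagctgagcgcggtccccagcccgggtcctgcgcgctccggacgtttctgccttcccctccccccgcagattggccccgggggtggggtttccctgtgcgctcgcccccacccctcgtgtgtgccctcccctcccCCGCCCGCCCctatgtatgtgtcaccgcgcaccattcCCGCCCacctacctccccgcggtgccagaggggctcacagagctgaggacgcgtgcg

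The Hapln1 window held 1 RUNX match, at -160 from the start site, and none to the other letters searched. That motif occurs in 16.8% of the 32851 RefSeq promoters of this length. The Vcan window held 2 GC boxes and the Acan window 3, of which 2 overlap, where 35.7% of promoters have at least 1. The Hapln3 window held the TATA-like element at -239, a match found in 13.6% of promoters. None of the 4 printed windows held the SOX motif, present in 18.7% of promoters, or the cyclic AMP response element, present in 1.79%. The GC content was 74.0% for Acan, higher than in 95.2% of promoters, 61.0% for Vcan, 57.0% for Hapln3 and 54.3% for Hapln1, against a median of 52.7%. Such matches describe letters and are not evidence of binding.

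Among the genes, 1 proteoglycan and 3 link protein transcripts differed by 2-fold or more, in both directions. The proteoglycan Acan, the receptor Cd44 and the hyaluronidase Hyal2 lay within 2-fold, and the synthases Has1 and Has2 were barely detected. Hapln1 and Hapln3 were higher in the mutant pool and Vcan and Hapln4 were lower. Thus 2 of the 7 genes at 1 FPKM or more were called higher, where 13.7% of all 15425 such rows were, and 2 were called lower, where 11.3% of all rows were. After rescaling to the same upper quartile, 2 of the 7 genes were called higher and 0 lower, beside 18.4% and 8.41% of all rows. Hapln3 reached 1 FPKM only in the mutant pool and Hapln4 only in the control, so both passed the filter through the pool in which they are higher. Among the 5 genes at 5 FPKM or more, Hapln1 was the 1 gene called higher and Vcan the 1 called lower. Of all 11037 rows at that level, 9.28% were called higher and 9.96% lower. The median log2 ratio of the 7 genes was 0.17, beside -0.03 for all rows. The remaining 2 genes with a row of their own, Has1 and Has2, stayed below 1 FPKM in both libraries.

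**Figure D1:**
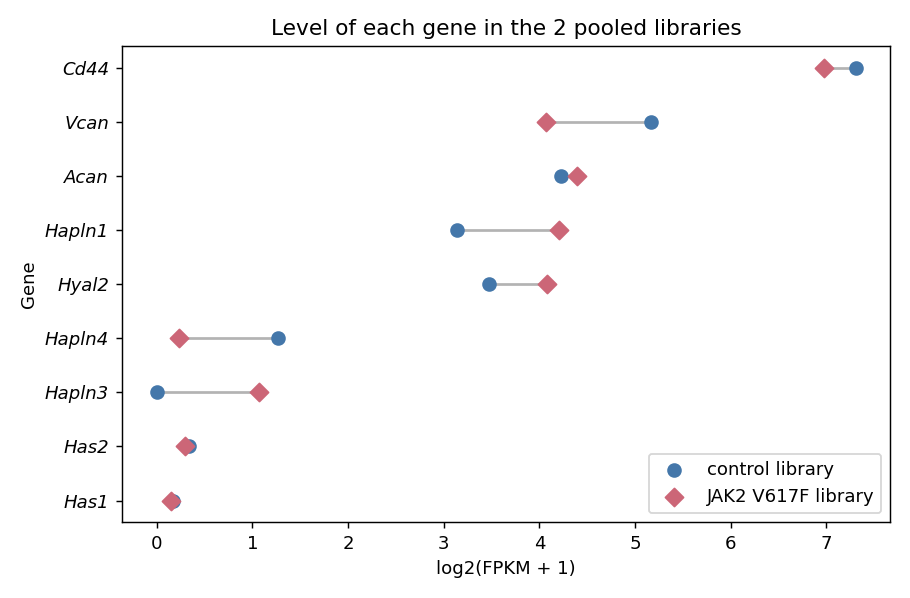
Level of the 9 genes with a row of their own, as log2(FPKM + 1), in the control library (circles) and the mutant pool (diamonds), 1 pooled library each. Cd44 is highest in both libraries, Vcan and Hapln1 move in opposite directions, and Has1 and Has2 sit near 0.

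Among the lecticans, Vcan and Acan exchanged places. Vcan measured 34.8 FPKM in control cells and 15.8 FPKM in the mutant pool (log2 ratio -1.09). The control value was thus 2.20 times the other. Acan, the aggrecan of cartilage, measured 17.7 and 20.0 FPKM (0.17). Versican transcripts were therefore 1.97 times as abundant as aggrecan transcripts in the control library and 0.791 times as abundant in the mutant pool. Reckoned at 1 kb of effective length, about 188 and 98.7 fragments would stand behind the Vcan values, and the exact (Clopper-Pearson) 95% interval of the mutant to control ratio would be 0.353 to 0.583 around 0.454. On the shortest protein-coding transcript, of 294 nt, it would be 25.1 and 13.2 fragments and 0.211 to 0.911, and on the longest 0.423 to 0.487. The ratio for Acan was 1.13. Its interval was 1.02 to 1.25 if fragments are reckoned on the longest protein-coding transcript, but it includes a ratio of 1 on the shortest. These intervals cover counting error only, not differences between animals. The Vcan call was lost with a pseudocount of 5 (-0.94) and when both libraries were rescaled to the same FPKM sum (-0.92) or to the same upper quartile (-0.83).

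The row for Vcan carries a locus on chromosome 13 from 89655312 to 90143907 (GRCm38), far longer than the gene, and 6 other rows, Tmem167 and Xrcc4 among them, have the same locus. Tmem167 measured 7.96 and 8.62 FPKM and Xrcc4 measured 1.63 and 1.52 FPKM, while 2 other rows of the same locus differed more, snoU109 from 179 FPKM to 0 and Gm4117 from 0.105 to 4.13 FPKM. Not given in the sources used here is how fragments were shared out within such a locus. The Acan row covers 79053483 to 79115099 on chromosome 7 and overlaps no other row.

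The remaining lecticans, known mainly from brain matrix, were low. Bcan measured 4.85 FPKM in the control pool and 0.994 FPKM in the mutant pool, a log2 ratio of -1.55. It passed the filter only through the control pool. On its longest protein-coding transcript this was about 78.1 and 18.5 fragments, with a counting interval of 0.120 to 0.351. On the shortest it was 5.79 and 1.37 fragments, with an interval of 0.00313 to 1.19 that includes a ratio of 1. Ncan stayed below 1 FPKM, at 0.331 and 0.0780 FPKM, or about 12.6 and 3.43 fragments on its only annotated protein-coding transcript. As a share of the summed FPKM of the 4 lecticans, Acan made up 30.7% in the control and 54.2% in the mutant pool, and Vcan made up 60.3% and 42.9%. The sum itself was 57.6 FPKM in control cells and 36.8 FPKM in the mutant pool.

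Hapln1, the link protein of cartilage, measured 7.83 FPKM in control cells against 17.5 FPKM in the mutant pool (log2 ratio 1.07). On its only annotated protein-coding transcript of 5715 nt this corresponds to about 235 and 608 fragments, and to a ratio of 2.24, for which counting error alone gives 1.92 to 2.61. The call held under all 3 rescalings and with a pseudocount of 0.1, and was lost with a pseudocount of 5 (0.81). Hapln1 stood at 0.443 times the level of Acan in the control library and at 0.877 times in the mutant pool. Hapln1 thus came close to the level of its partner proteoglycan in the mutant pool, where Acan itself differed little. The row covers 89540636 to 89611832 on chromosome 13.

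Hapln3, a link protein expressed more widely than Hapln1, was listed at 0 in the control library and at 1.10 FPKM in the mutant pool. Its protein-coding transcripts of 930 and 3358 nt put this at about 5.32 to 22.1 fragments. A count of 0 allows up to about 3 fragments. In the control library 3 fragments would be worth 0.174 FPKM on the longer and 0.722 FPKM on the shorter transcript. The value of 0 thus does not exclude a level below these. The difference rested on few fragments, and its log2 ratio of 1.07 depended on the pseudocount, ranging from 0.29 with 5 FPKM added to 3.59 with 0.1 FPKM added. Hapln4, a link protein of brain, went the other way, with 1.40 FPKM in control cells and 0.174 FPKM in the mutant pool (-1.03). On its single protein-coding transcript this was about 26.4 and 3.79 fragments. The ratio without a pseudocount was 0.124, with a counting interval of 0.0337 to 0.383. The call for Hapln4 was lost after rescaling to the same upper quartile (-0.99) and with a pseudocount of 5 (-0.31). Hapln2 was listed at 0 in both pools. Of the summed link protein FPKM, 9.23 in the control and 18.8 in the mutant pool, Hapln1 made up 84.8% and 93.2%.

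**Figure D2:**
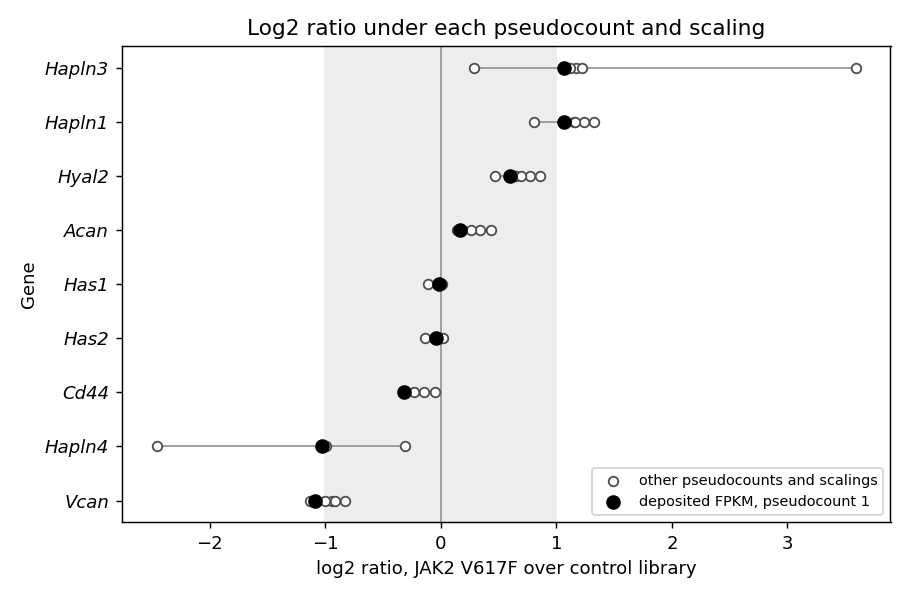
Log2 ratio of JAK2 V617F over control for the 9 genes. Filled points use the deposited FPKM with a pseudocount of 1, open points the other pseudocounts (0.1 and 5) and the 3 rescalings, and the grey band spans a 2-fold difference either way. Hapln1 and Vcan lie near the edges of the band on opposite sides, and the low genes Hapln3 and Hapln4 move most with the pseudocount.

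The link protein and lectican genes form 4 neighbouring pairs, with no other row of the table between the partners. In the first pair the partners diverged. Hapln1 and Vcan lie 43479 bases apart on chromosome 13 on opposite strands, with their 3′ ends facing each other. There were 0.225 Hapln1 transcripts per Vcan transcript in the control library and 1.11 in the mutant pool, both on the FPKM scale. Hapln3 and Acan also face each other, 1927 bases apart on chromosome 7. Hapln3 was at 0.0553 of the Acan level in the mutant pool, the 1 library in which it was detected. Hapln4 and Ncan lie 2222 bases apart on chromosome 8, and both measured less in the mutant pool. There Hapln4 was at 2.23 times the level of Ncan, against 4.23 times in the control, but each gene had under 4 estimated fragments in the mutant pool. Hapln2 and Bcan lie 21393 bases apart on chromosome 3, on the same strand, and only Bcan was detected. Whether strand was used in counting is not stated in these sources, so fragments from the facing 3′ ends of the closest pairs may not have been told apart.

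**Figure D3:**
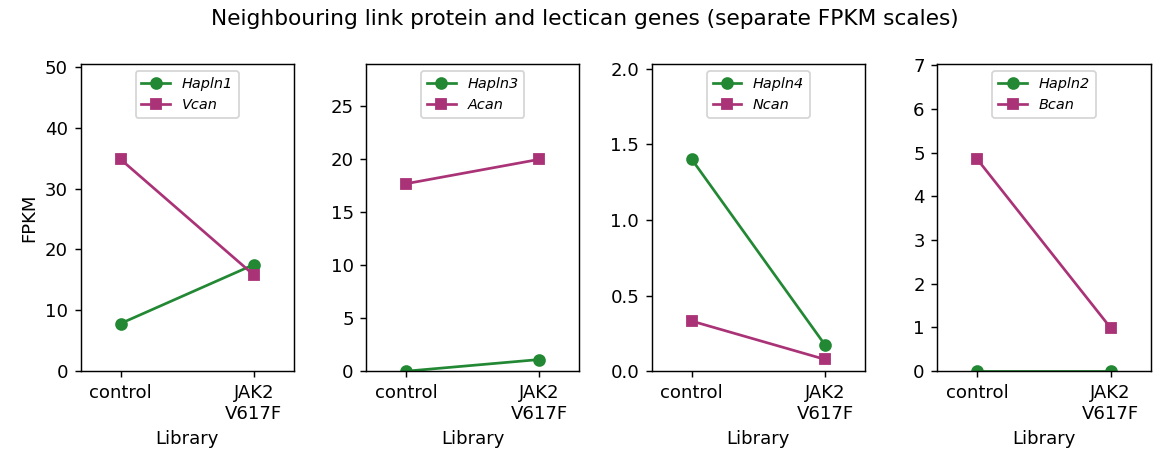
FPKM of the neighbouring link protein genes (circles) and lectican genes (squares) in the control and JAK2 V617F libraries, each panel on its own scale. Vcan and Hapln1 cross, from 34.8 and 7.83 FPKM in the control to 15.8 and 17.5 FPKM, while Acan is at 17.7 and 20.0 FPKM.

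Both synthases in the list were close to the limit of detection. Has2, the main synthase of developing connective tissue, measured 0.262 FPKM in the control library and 0.230 FPKM in the mutant pool. That is about 5.77 and 5.85 fragments on its only transcript of 4237 nt, and the counting interval of the ratio, 0.231 to 3.23, includes a 2-fold difference in either direction. Has1 measured 0.126 and 0.110 FPKM, about 1.32 and 1.33 fragments, which is below the limit that a count of 0 allows and gives no ratio. The value of a single fragment was 1.16 times as large in the control as in the mutant pool. The FPKM of Has2 was 1.14 times as large there, close to what equal numbers of fragments would give. Has3 was the synthase with the most transcripts, at 3.46 FPKM in control cells and 2.56 FPKM in the mutant pool (log2 ratio -0.32). It made up 89.9% and 88.3% of the summed synthase FPKM. The Has3 row has the same locus as a row for Chtf8, at 53.1 and 36.9 FPKM. How fragments were shared out between these 2 rows is not given, so the Has3 level and share carry that limit. The Has2 row spans 56665627 to 56778399 on chromosome 15 and overlaps a row for the antisense gene Has2as, at 1.80 FPKM in control cells but listed at 0 in the mutant pool. Has2as was singled out after its values were seen. Reads from Has2 and from its antisense partner cannot be told apart if strand was not used.

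Cd44 was by far the most abundant of the genes. It measured 157 FPKM in control cells and 125 FPKM in the mutant pool (log2 ratio -0.32), which ranked it 656 and 775 among the 15425 rows at 1 FPKM or more. At 1 kb of effective length about 847 and 782 fragments would stand behind these values, with a counting interval of 0.722 to 0.879 for the ratio of 0.797. The receptor was the most abundant transcript of the list in both libraries, at 4.51 times the level of Vcan in the control and 7.92 times in the mutant pool. Its log2 ratio ranged from -0.33 to -0.05 over the pseudocounts and scalings, so it lay within 2-fold under each of them. The gene, at 102811141 to 102901665 on chromosome 2, has 8 annotated protein-coding transcripts, and the table gives no value per isoform. Its row overlaps one for a U6 small nuclear RNA, at 1198 and 524 FPKM. In bulk libraries such as these, fewer cells of a type and less RNA per cell cannot be told apart, which bears on Cd44 since both stroma and blood cells express it.

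The hyaluronidase Hyal2 measured 10.1 FPKM in the control library and 15.9 FPKM in the mutant pool (log2 ratio 0.60). With about 54.5 and 99.1 fragments at 1 kb of effective length, the counting interval of its ratio of 1.57 was 1.11 to 2.20, though on its shortest protein-coding transcript it would be 0.639 to 3.94. The log2 ratio was within 2-fold under every pseudocount and scaling tried (0.47 to 0.86). The Has3 row shares its locus with Chtf8. Relative to Has3, the most abundant synthase, Hyal2 stood at 2.92 times the level in the control and 6.18 times in the mutant pool. Its row covers 107569117 to 107572776 on chromosome 9. The neighbouring row that names Hyal1, Hyal3 and Nat6 together, from 107575820 to 107587425, measured 79.8 and 39.9 FPKM, a log2 ratio of -0.98 that falls just short of 2-fold. How much of it belongs to Hyal1 is not known, so no level of Hyal1 is given.

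Supply of sugar precursors and further breakdown showed no call. None of the 9 genes that supply UDP-sugars was called, with a median log2 ratio of -0.06. Over all rows, 13.7% were called higher and 11.3% lower. Those furthest from 0 were Uap1, which makes UDP-N-acetylglucosamine, at 23.6 and 38.1 FPKM (control first), Ugdh, which makes UDP-glucuronic acid, at 15.4 and 9.87 FPKM, and Ugp2, at 20.3 and 15.3 FPKM. None of 6 further genes listed under breakdown was called either (median -0.02). They include Mgea5 (39.7 and 39.1 FPKM), whose part in hyaluronan breakdown is not established. The cell-surface hyaluronidase gene Tmem2 measured 6.37 and 4.23 FPKM. Hexa, which encodes a lysosomal enzyme subunit, measured 10.6 and 15.4 FPKM.

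Of the 14 measured genes for other hyaluronan binding proteins and receptors, 4 were called higher and 2 lower, and the median log2 ratio was 0.46. Of all rows, 13.7% were called higher and 11.3% lower. Habp2 (0 and 1.14 FPKM), Itih2 (0 and 2.42 FPKM) and Stab2 (0 and 1.07 FPKM) passed the filter only through the mutant pool. Itih4 passed it only through the control pool. The largest difference was in Prg4, which encodes the joint lubricant lubricin, at 20.1 and 1234 FPKM. Itih4, a relative of the heavy chains that are transferred to hyaluronan, was lower, at 4.56 and 0.112 FPKM. Layn, the hyaluronan receptor layilin, was also lower, at 8.10 and 1.41 FPKM. Among 9 genes for proteases that cut aggrecan or versican and their regulators, the 1 call was Adamts20, higher at 0.367 and 6.72 FPKM. Adamts20 passed the filter only through the mutant pool. Adamts8 measured 0.189 and 1.34 FPKM. Timp3, an inhibitor of these proteases, measured 90.2 and 52.7 FPKM (log2 ratio -0.76). The aggrecanase genes Adamts4 and Adamts5, named after their values were seen, measured 3.19 FPKM in both libraries and 7.44 and 7.18 FPKM.

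Genes that build the chondroitin sulfate chains of lecticans showed 1 call in each direction among 21 measured (median -0.10). Over all rows, 13.7% were called higher and 11.3% lower. The sulfotransferase gene Chst12 was higher in the mutant pool, at 5.58 and 20.5 FPKM, and Slc35b2, which carries the sulfate donor into the Golgi, was lower, at 15.2 and 6.51 FPKM. Csgalnact1, which starts the chain, measured 0.750 and 2.39 FPKM. Of 10 partners and ligands of CD44, Cd74 alone was called, higher at 4.32 and 19.5 FPKM. Spp1, which encodes the CD44 ligand osteopontin, measured 2311 and 1201 FPKM, and the CD44-cleaving protease gene Mmp14 measured 55.1 and 33.3 FPKM. Spp1 stood at 14.7 times the level of Cd44 in the control library and 9.60 times in the mutant pool.

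**Figure D4:**
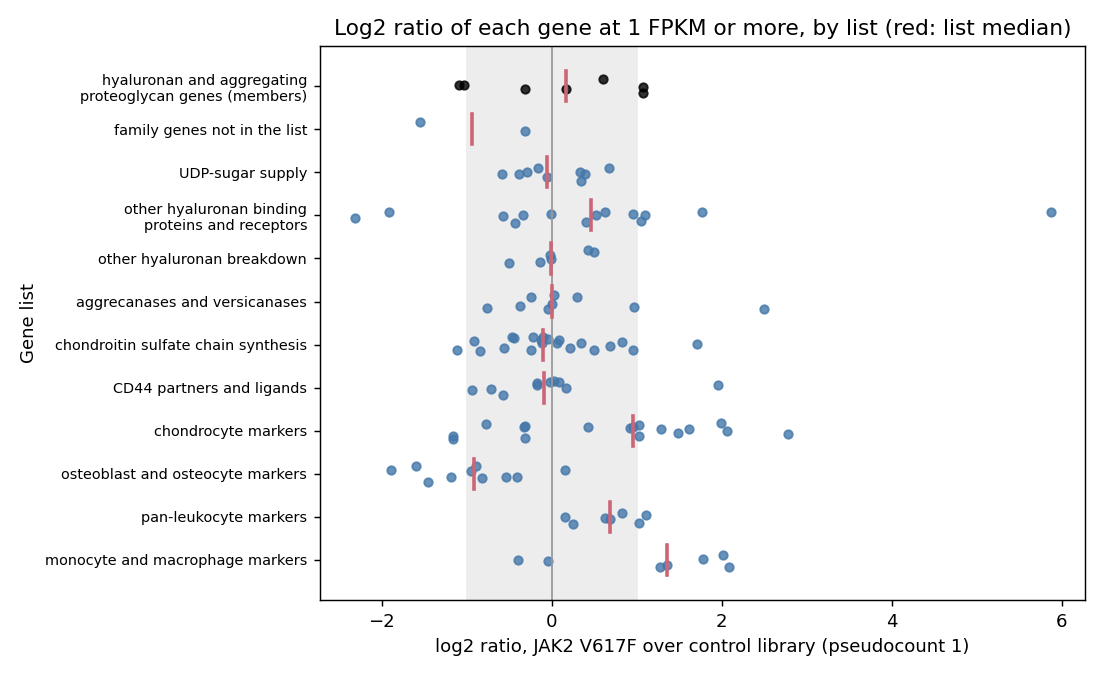
Log2 ratio of JAK2 V617F over control for each gene at 1 FPKM or more, 1 row of points per list, with red bars at the list medians and a grey band spanning a 2-fold difference either way. The 7 genes described here (black) spread from -1.09 to 1.07, UDP-sugar supply and breakdown genes stay inside the band, and Prg4 stands apart at 5.87.

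Markers of the cell types that make these matrix genes also differed between the pools. Each count of calls stands beside 13.7% of all rows called higher and 11.3% called lower. The 2 genes named first for each list are those with the highest value in either pool, which need not be the highest in each. Of 17 measured chondrocyte markers, 8 were called higher and 2 lower in the mutant pool, and their summed level was 612 FPKM in control cells and 924 FPKM in the other. Col2a1, the collagen of cartilage, measured 178 and 238 FPKM, and Chad measured 102 and 313 FPKM. Those called lower were Col11a2, at 59.2 and 26.0 FPKM, and Ihh, at 1.24 FPKM and 0. Matn1, a further cartilage marker, was listed at 0 in both. Of the 17 markers, 7 lay within 2-fold, and 6 had a log2 ratio below 0. Matn3 (0.333 and 8.14 FPKM) passed the filter only through the mutant pool, and Ihh only through the control pool. Acan stood at 0.0994 of the Col2a1 level in the control and 0.0837 in the mutant pool. The part that chondrocytes played in the values of Hapln1 and Acan was not tested. Of 10 osteoblast and osteocyte markers, 4 were called lower and none higher, with sums of 3980 and 2014 FPKM. Col1a1 measured 2784 and 1436 FPKM and Bglap 519 and 171 FPKM, while Ibsp, at 303 and 207 FPKM, was above Bglap in the mutant pool. All 7 mesenchymal stromal markers were within 2-fold, with sums of 1107 and 864 FPKM.

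Versican and CD44 are also made by blood cells. The counts of blood cell markers called again stand beside 13.7% of all rows called higher and 11.3% called lower. Of 7 measured monocyte and macrophage markers, 5 were called higher in the mutant pool. They were Cd68 (3.14 and 13.2 FPKM), Csf1r (2.49 and 7.41 FPKM), C1qb (0.233 and 4.20 FPKM), C1qc (0.869 and 3.75 FPKM) and Cd14 (0 and 3.05 FPKM). C1qb, C1qc and Cd14 passed the filter only through the mutant pool. The whole list summed to 255 FPKM in control cells and 228 FPKM in the mutant pool. It was led by Lyz2 (207 and 157 FPKM) and Ly6c2 (39.6 and 38.3 FPKM), which were not called. C1qa was listed at 0 in both, and Cd14 and Ms4a7 at 0 in the control. Pan-leukocyte markers, with 2 of 7 called higher, summed to 307 and 424 FPKM, led by Laptm5 (165 and 183 FPKM) and Fcer1g (69.1 and 112 FPKM). Erythroid markers, with 2 of 8 called lower, summed to 2464 and 1280 FPKM. Hbb-b1 measured 1096 and 379 FPKM and Slc4a1 380 and 195 FPKM, while Tfrc, at 267 and 234 FPKM, was above Slc4a1 in the mutant pool. Neutrophil markers summed to 2388 and 2523 FPKM but moved both ways, with 2 of 10 called higher and 3 lower. Mpo measured 577 and 663 FPKM and Elane 402 and 549 FPKM. The 3 called lower were Ngp (450 and 182 FPKM), Camp (84.2 and 37.8 FPKM) and Ltf (24.1 and 9.01 FPKM), and the 2 called higher were Retnlg (18.0 and 61.6 FPKM) and Mmp8 (2.59 and 13.1 FPKM). Lymphocyte markers, with 4 of 7 measured called higher, summed to 88.1 and 159 FPKM, led by Nkg7 (27.3 and 76.6 FPKM) and Cd79b (27.2 and 32.2 FPKM). Cd3g was at 0 in both, Cd3e and Cd4 were at 0 in the control, and Cd8a was at 0 in the mutant pool. Among those called, Cd4 (0 and 2.69 FPKM) and Ms4a1 (0.267 and 1.94 FPKM) passed the filter only through the mutant pool. Of these sums, the pan-leukocyte, neutrophil and lymphocyte ones were higher in the mutant pool, and the monocyte and erythroid ones were lower. The monocyte and macrophage sum was mostly Lyz2 (207 and 157 FPKM), while 5 of the 7 measured markers of that list were called higher. The part that any of these cells played in the values of the hyaluronan genes was not tested.

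The sums for 4 further marker lists were all higher in the mutant pool. Here too, 13.7% of all rows were called higher and 11.3% lower. Markers of synovial and tendon fibroblasts summed to 36.2 and 1264 FPKM, nearly all of it Prg4 in the mutant pool. Of 8 listed, 3 were measured at 1 FPKM or more. Prg4 and Dpt (11.5 and 27.4 FPKM) were called higher and the tendon gene Scx (2.03 FPKM in the control, log2 ratio -1.01) lower. Scx passed the filter only through the control pool. Clec3b, Clic5, Mkx and Htra4 stayed under 1 FPKM, and the tendon gene Tnmd was listed at 0 in both. Smooth muscle and pericyte markers, with 1 of 5 measured called higher, summed to 147 and 252 FPKM, led by Rgs5 (115 and 183 FPKM) and Acta2 (12.2 and 43.2 FPKM). Endothelial markers, with 2 of 7 measured called higher, summed to 33.2 and 40.5 FPKM. Vwf was at 5.53 and 8.08 FPKM behind Pecam1, and Lyve1 was at 0 in both. The 2 called, Emcn (0.196 and 5.15 FPKM) and Stab2 (0 and 1.07 FPKM), passed the filter only through the mutant pool. Neuronal and glial markers are given because Hapln4, Bcan and Ncan are best known from brain. Of 8 measured, 5 were called higher, and the list summed to 46.5 and 132 FPKM, led by S100b (22.4 and 76.2 FPKM). Snap25, Syt1, Nefm, Prph and Tubb3, which mark neurons, were listed at 0 in the control. Snap25, Syt1, Nefm and Prph thus passed the filter only through the mutant pool. The glial gene Sox10 measured 2.30 FPKM in both pools. The part that neuronal or glial cells played in the values of Hapln4, Bcan and Ncan was not tested.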

How the data were processed

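Per the file header, the deposited table gives 1 FPKM value per gene and library, made by the authors. The tools named in the submitters' processing notes are Bowtie2 2.0.6, TopHat2 2.0.7, cutadapt 1.2.1 and Cufflinks, and the build is GRCm38. Not given in the sources used here are the annotation, the use of strand, the Cufflinks settings and any scaling between libraries. RNA was amplified before library preparation, per the labels' protocols, which mention no molecular identifiers, so intervals and limits from fragment numbers cover counting error only.

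FPKM are not counts, and 1 library per genotype allows no test. Log2 ratios used a pseudocount of 1 and a minimum of 1 FPKM in at least 1 library. Of the 35798 rows, 401 name several genes. Depth was estimated from the steps of FPKM times effective length in 5569 genes with 1 transcript in GENCODE vM21 and the same locus. The length offset, 160 nt, was the one of 31 values that made the steps sharpest. Of the genes below 3.5 fragments, 80.9% (control) and 83.3% (JAK2 V617F) then lay within 0.2 of a whole number. The calculations (Python 3.11.15, numpy 2.4.6, pandas 2.3.3, scipy 1.17.1) were tested on simulated data. Locus starts count from 1.

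Genes and lists were chosen with earlier results of these data known. All 10 members were to be named, with the 3 genes of each pathway list furthest from 0, the 2 genes of each marker list with the highest value in either library, and Has3, Hapln2, Bcan, Ncan and Hyal3. Some genes that this rule takes are not reported here, and other marker genes were named after their values were seen. Listed symbols without a row were matched through RefSeq synonyms. Alternatives were 2 other pseudocounts, 2 other filters, 3 rescalings and including the shared row. Motifs searched in promoters were chosen after seeing the data.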

Additional observations from a re-analysis of the deposited data

How the results depend on the processing

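With 1 library per genotype, no replicate could be left out, and the limits below are those of the arithmetic alone. No paired analysis was possible because each group held 1 library. Of 45 values for single genes under the other pseudocounts and scalings, 38 stayed on their side of the 2-fold limit. The other 7 fell within it, and none changed sign while called. All 7 belong to the called genes, with 3 for Vcan, 2 for Hapln4, 1 for Hapln1 and 1 for Hapln3. Acan, Cd44, Hyal2, Has1 and Has2 had no call to lose, so the 38 overstates how stable the calls were. With a pseudocount of 5, 0 genes were called higher and 0 lower, with Vcan at -0.94. Of all rows, 3.95% were called higher and 4.10% lower at that pseudocount. At 5 FPKM or more, 1 was higher and 1 lower, since fewer genes remain, beside 9.28% and 9.96% of all rows. The number called lower was 1 after rescaling to the same FPKM sum and 0 after rescaling to the same upper quartile. Of all rows, 9.33% and 8.41% were called lower under these rescalings. The median log2 ratio of the genes was -0.02 with no filter and -0.08 with the shared row of Hyal1 included, both by adding genes, and 0.34 and 0.43 after the rescalings to the same sum and upper quartile. Those rescalings add 0.18 and 0.27 to every log2 ratio before the pseudocount, and the median of all rows became 0.14 and 0.23. Rows called higher made up 54.7% of all calls on the deposited scale and 68.6% after rescaling to the same upper quartile. Depth limited Has1, Has2, Hapln3 and Hapln4, each with fewer than 30 estimated fragments in either library.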

Other observations

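Receptors that clear hyaluronan from tissue fluid and blood were low in both pools and were described after their values were seen. Lyve1, the hyaluronan receptor of lymphatic vessels, was listed at 0 in both libraries. Stab2, the clearance receptor of sinusoidal endothelium, was listed at 0 in control cells but at 1.07 FPKM in the mutant pool. Stab1, shared by sinusoidal endothelium and macrophages, measured 4.77 and 10.2 FPKM, control first. In the same libraries the endothelial gene Emcn measured 0.196 and 5.15 FPKM, while Cdh5 measured 4.94 and 4.66 FPKM. Hmmr, a hyaluronan binding protein of the mitotic spindle, measured 62.4 and 46.0 FPKM (log2 ratio -0.43) and was the second most abundant of the hyaluronan binding transcripts listed here in the control pool, after Cd44.

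Proteins that crosslink hyaluronan were also measured. Tnfaip6, which transfers heavy chains to hyaluronan, stood at 2.58 and 1.41 FPKM, and Ptx3, which binds those chains, at 7.03 and 5.33 FPKM. Among the heavy chain genes, Itih5 was at 12.6 and 12.5 FPKM, Itih2 was listed at 0 in control cells but at 2.42 FPKM in the mutant pool, and Itih3 was listed at 0 in both.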
